A study of Mus musculus with 18 samples.

Results

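The subventricular zone (SVZ) is the layer of cells beneath the wall of the lateral ventricle in which neurons are still born in the adult mouse brain. Its transcriptome in the absence of the mutant allele was read from 9 control arrays, chosen by their label as controls out of 18 arrays in the study, each taken here as 1 mouse. The control animals were *Idh1*+/+ littermates of Tam-Idh1-KI mice on the c57bl6 strain, and per the methods of the study they could carry the *Nes-Cre* transgene or lack it. The labels do not say which of the 9 mice carried it. All of them had received tamoxifen by intraperitoneal injection, 50 mg/kg a day for 5 days at 5 to 6 weeks of age, so that the baseline described here is that of tamoxifen-treated SVZ. The region was cut out of sectioned brains under a microscope and snap-frozen, and its RNA was amplified, labelled with biotin and measured on an Illumina array (Mouse WG6-v2), whose beads each carry a probe for part of a transcript. Control replicates 7 to 9 (C7 to C9; 1 female of 7 months and 2 males of 7 and 9 months) were hybridised on the later day, called day 2, and control replicates 1 to 6 (C1 to C6; 2 females of 6 months and 4 males of 5 or 6 months) on the earlier day, called day 1. Day and age go together in this design and cannot be told apart.

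In the adult SVZ, astrocyte-like neural stem cells (NSCs) that carry GFAP line the ventricle beside multiciliated ependymal cells. Activated NSCs give rise to transit amplifying progenitors (TAPs), and these to neuroblasts, which carry doublecortin and migrate along the rostral migratory stream to the olfactory bulb. NSCs also produce some oligodendrocyte progenitors. The layer is thin and lies against the striatum, whose projection neurons are GABAergic, so a block of tissue cut from it also holds neurons, astrocytes, myelin, vessels and microglia. In such bulk tissue, fewer cells of a type and less RNA per cell cannot be told apart.

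Signals are given as normalized log2 values, background-corrected and scaled to a common distribution over the 9 control arrays, with the SD pooled within hybridisation days and n = 9 unless stated. A probe was called detected where fewer than 5 in 100 negative control beads were as bright, a detection p-value under 0.05. On this scale the faintest detected probe of an array lay between 5.13 and 5.47. The brightness of a probe also depends on its sequence, so ranks among genes are ranks of signal and not of transcript number.

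The 4 genes used to check the tissue were detected on all 9 arrays. *Dcx*, the neuroblast gene for doublecortin, had signals of 10.11, 9.88 and 10.25 in C7 to C9, against 9.20, 9.16, 9.28, 9.13, 9.09 and 8.65 in C1 to C6. The days did not overlap on this probe, as was the case in 44.9% of all 12173 genes tested, and C6 was the lowest of the 9. Of the 3 other *Dcx* probes 1 was detected, on all 9 arrays, with 9.55, 9.07 and 9.50 on day 2, against 8.77, 8.85, 9.10, 9.06, 8.72 and 8.18 on day 1, so that C8 lay just below C3 there. *Gfap*, of NSCs and of astrocytes, had 8.94, 8.46 and 9.12 on day 2, against 10.60, 9.91, 10.54, 9.62, 9.83 and 11.37 on day 1, again without overlap and with C6 the highest array. Its other probe, at 7.74 to 7.86 on day 2 and 8.45 to 10.48 on day 1, did not overlap between days either. *Foxj1*, the master regulator of motile cilia in ependymal cells, was dimmer and overlapped between days, at 6.71, 6.61 and 7.12 on day 2 and between 6.48 and 7.29 on day 1. *Drd1*, the dopamine receptor of striatonigral neurons, had 12.36, 12.49 and 12.74 on day 2 and 12.34 to 12.77 on day 1. It held rank 412 of 12173 genes by signal, whereas *Gfap* held rank 3469, *Dcx* rank 4139 and *Foxj1* rank 8526. The defining markers of the labelled region were thus present in every sample, together with those of striatal neurons. Of the other proteins that the study stained, *Rbfox3*, encoding NeuN, was at 13.10 ± 0.06, *Pdgfra* at 10.14 ± 0.18, *S100b* at 6.99 ± 0.34 and *Nes*, encoding nestin, at 6.33 ± 0.29. *Olig2* was near background, at 5.43 ± 0.43 with detection on 6 of 9 arrays, and *Mki67* has no probe with its symbol in the annotation used here.

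**Figure D1:**
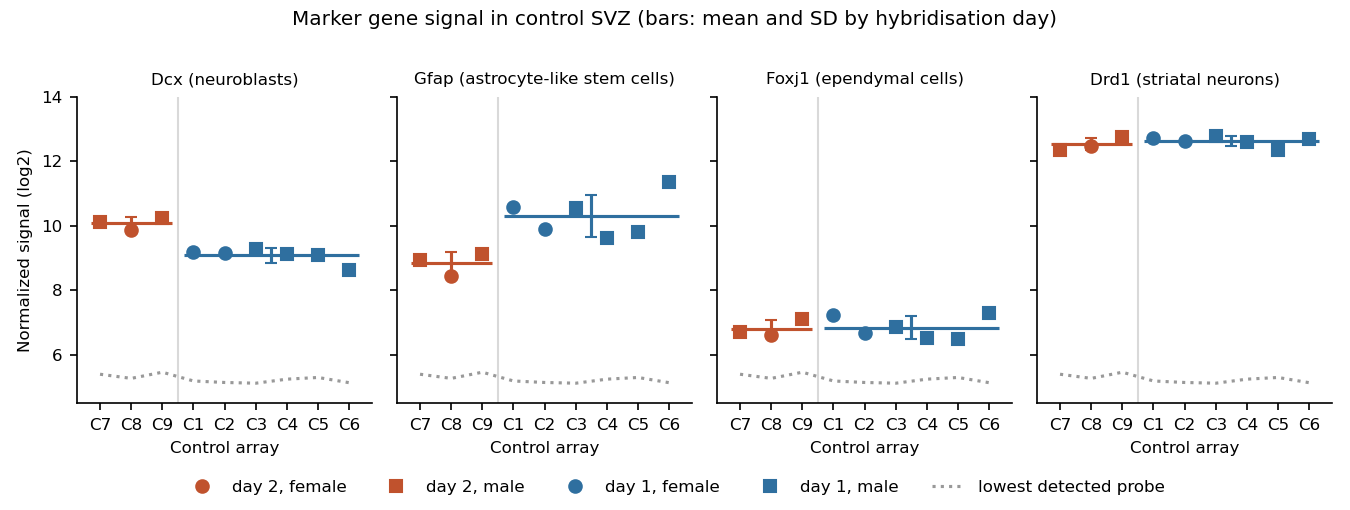
Normalized log2 signal (vertical axis) of *Dcx*, *Gfap*, *Foxj1* and *Drd1* in each control array (horizontal axis), day 2 to the left of day 1. Circles are females, squares males, the horizontal bar with its whisker the mean and SD of a day, and the dotted line the faintest detected probe of each array. *Dcx* separates the days upward and *Gfap* downward, where 44.9% of all genes tested also separate them, and *Drd1* stays between 12.34 and 12.77.

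Sex labels were borne out on all 9 arrays by *Xist*, *Eif2s3y* and *Kdm5d*, genes of the sex chromosomes. *Xist*, the RNA that silences 1 X chromosome, had 11.70, 11.12 and 11.23 in the females C1, C2 and C8 and 4.49 to 4.80 in the 6 males, in none of which it was detected. The Y-linked genes *Eif2s3y* and *Kdm5d* were, on their brightest probes, detected in 6 of 6 males and in 0 of 3 females. *Uty*, also Y-linked, was dim and detected on 7 of 9 arrays on its brightest probe. It overlapped between the sexes, at 5.02 to 5.78 in females and 5.76 to 6.14 in males. After normalization the arrays correlated at 0.989 to 0.99 within day 2, at 0.981 to 0.99 within day 1 and at 0.963 to 0.974 between days. Between 44.6% and 47.8% of probes were detected per array on day 2 and between 47.2% and 50.9% on day 1. The means were 45.98 ± 1.61% on day 2 and 49.41 ± 1.44% on day 1 (SD, n = 3 and 6; two-sided exact permutation p = 0.0357, where 0.0119 is the smallest that 84 splits allow). This call was lost without any 1 of C1 to C4, C6, C7 or C9, with exact permutation p-values up to 0.0714. The mean signal was 586.1 ± 103 on day 2 and 581.7 ± 83.4 on day 1 (exact permutation p = 0.952).

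Of 45281 probes 17398 (38.4%) were detected on all 9 control arrays. Among 19057 genes with a probe of their own, 9946 (52.2%) had at least 1 probe detected on all 9, 4223 on some arrays and 4888 (25.6%) on none. Families that serve every cell were nearly complete. Of 34 subunit genes of mitochondrial complex I 33 (97.1%) were detected on all 9 arrays, as were 52 of 59 cytosolic ribosomal protein genes (88.1%). Zinc finger genes (195 of 331, 58.9%), solute carriers (188 of 356, 52.8%), potassium channels (46 of 87, 52.9%) and ionotropic glutamate receptor subunits (8 of 15, 53.3%) lay close to the share of all genes. Chemosensory families were almost silent. The olfactory receptors had 1 of 1078 genes detected throughout, *Olfr724* at 6.57, and the vomeronasal receptors 1 of 171, *Vmn1r69* at 5.63. Of 38 *Hox* genes, which pattern the trunk and hindbrain, 1 was detected on all 9 arrays, *Hoxa13* at 6.37. Of 18 type I interferon genes 3 were, namely *Ifna1* at 5.79, *Ifna6* at 7.23 and *Ifnab* at 6.43, and 13 were detected on none.

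The brightest genes were housekeeping and neural. The 20 with the highest mean signal spanned 0.32 on the log2 scale, with pooled SDs between 0.03 and 0.19, so that neighbours in this order do not differ beyond their spread. Ribosomal proteins made up 9 of them, with *Rplp1* at 14.88 ± 0.08, *Rpl41* at 14.83 ± 0.08, *Rps29* at 14.83 ± 0.11, *Rpl38* at 14.81 ± 0.09, *Rps24* at 14.74 ± 0.08, and *Rpl9*, *Rpl37*, *Rpl23* and *Rps12* between 14.66 and 14.68. *Eef1a1*, the translation elongation factor, *Atp5b*, of ATP synthase, and the mitochondrially encoded *ND4* and *CYTB* of the respiratory chain were at 14.81, 14.71, 14.71 and 14.59. *Fth1*, encoding the heavy chain of ferritin, stood at 14.84 ± 0.14, *Mt1*, a metallothionein, at 14.82 ± 0.10, *Ckb*, the brain creatine kinase, at 14.76 ± 0.19 and the ubiquitin pseudogene *Ubb-ps* at 14.80 ± 0.07. A pseudogene shares sequence with its parent gene, and its signal cannot be assigned to either. The other 3 were *Cst3*, the cystatin of astrocytes and microglia, at 14.66 ± 0.13, *App*, the amyloid precursor, at 14.55 ± 0.14, and *Arpp21*, a cAMP-regulated phosphoprotein abundant in striatal projection neurons, at 14.64 ± 0.12.

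In each list of the neurogenic lineage the share of genes detected was above that of all genes. The lists share members, so they are not separate evidence for each stage. *Sox11* and *Dlx1* are in both the TAP and the neuroblast list, and *Slc1a3* is also in the list of parenchymal astrocytes. Of 27 genes of NSCs and astrocyte-lineage stem cells on the array 18 were detected on all 9 arrays (66.7%, against 52.2% of all genes), with a median signal of 8.66 over the 22 genes detected on at least 3 arrays, against 8.30 over all 12173 such genes. The glutamate transporter *Slc1a3* at 13.99 ± 0.10, *Sox9* at 12.20 ± 0.19, *Id4* at 10.78 ± 0.33 and *Cd9* at 10.78 ± 0.21 were the brightest, and *Thbs4* and *Veph1* were not detected on any array. Of 11 TAP genes 8 were detected throughout (72.7%, median 9.42), led by *Sox11* at 11.88 ± 0.22, *Dlx1* at 11.47 ± 0.11, *Sox4* at 10.59 ± 0.52 and *Cdca7* at 10.54 ± 0.33. *Gsx2* and *Btg2* were below detection on all 9. The neuroblast list was the fullest of the lineage, with 24 of 27 genes on all 9 arrays (88.9%, median 9.34). It was led by the homeobox gene *Meis2* at 13.70 ± 0.14, *Gad1*, of GABA synthesis, at 13.33 ± 0.14, *Celf4* at 12.64 ± 0.19 and *Ncam1* at 12.41 ± 0.15, all of which mature GABAergic or other neurons express too.

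The S phase and mitosis lists were detected but dim. Of 27 replication genes 20 were found on all 9 arrays (74.1%), with a median signal of 7.20, more than 1 log2 unit below that of all genes. *Mcm4*, of the replicative helicase, at 10.43 ± 0.11, *Tipin* at 9.72 ± 0.21, *Fen1* at 9.36 ± 0.17 and *Pold3* at 9.31 ± 0.24 were the brightest, and *Slbp* and *Hells* were not detected. Of 30 genes of G2 and mitosis 17 were detected throughout (56.7%, median 7.10), and 8 on no array, among them *Ccnb2*, *Ube2c*, *Bub1* and *Cenpe*. *Anln* at 9.90 ± 0.27, *Cenpa* at 9.45 ± 0.31, *Kif23* at 8.73 ± 0.24 and *Prc1* at 8.56 ± 0.33 led this list. Oligodendrocytes express *Anln* too.

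The neighbouring cell types filled much of the signal. All 22 genes of parenchymal astrocytes on the array were detected on all 9 arrays, with a median of 11.55. They were led by *Cst3*, *Slc1a3*, the gap junction gene *Gja1* at 13.73 ± 0.10 and *Aldoc* at 13.65 ± 0.11. Of 28 genes of striatal projection neurons 26 were (92.9%, median 10.72), led by *Arpp21*, *Pdyn*, the prodynorphin of striatonigral cells, at 13.57 ± 0.15, *Ppp1r1b*, encoding DARPP-32, at 13.43 ± 0.17 and *Rgs9* at 13.07 ± 0.16, and only *Chrm4* was on no array. The synaptic genes of all neurons had the highest median of the 32 lists, 12.97, with *Syt1* at 13.92 ± 0.15, *Atp1b1* at 13.74 ± 0.15, *Eno2* at 13.71 ± 0.10 and *Thy1* at 13.35 ± 0.09. *Snap25* and *Nefl*, textbook neuronal genes, were nevertheless not well above background on any array, which bounds their probes and not their transcripts. Mature oligodendrocytes had 17 of 21 genes on all 9 arrays (81%, median 10.20), led by *Mbp*, of myelin, at 13.80 ± 0.20, *Cldn11* at 13.55 ± 0.13, *Plekhb1* at 12.54 ± 0.13 and *Mag* at 11.80 ± 0.28, with *Ermn* undetected. Their progenitors had 14 of 17 (82.4%, median 8.91), led by *Olig1* at 12.76 ± 0.08, *Bcas1* at 12.21 ± 0.22, *Ptprz1* at 10.57 ± 0.14 and *Sox10* at 10.15 ± 0.22, with *C1ql1* undetected.

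Cells of the ventricle wall and of vessels were dimmer. Ependymal genes were detected throughout in 26 of 37 cases (70.3%, median 8.62), led by *Rarres2* at 11.65 ± 0.32, *Fam183b* at 11.45 ± 0.26, the radial spoke gene *Rsph1* at 11.04 ± 0.21 and *Dynlrb2*, of the ciliary motor, at 10.94 ± 0.38. *Tmem212*, *Dnah9*, *Spag6*, *Spef2* and *Mcidas* were on no array. Choroid plexus epithelium, which hangs in the ventricle and is no part of the SVZ, had 9 of 16 (56.2%, median 6.90). *Ttr*, its transthyretin, had a pooled SD of 0.61 around 11.37, with 11.19, 10.84 and 11.63 in C7 to C9, against 12.15, 10.66, 11.27, 10.86, 11.39 and 12.35 in C1 to C6. *Car12* at 10.34 ± 0.12, *Clic6* at 10.08 ± 0.15 and *Otx2* at 8.44 ± 0.28 followed, and *Kcne2* was undetected. Microglia and macrophages had 18 of 22 (81.8%, median 8.59), led by *Laptm5* at 11.75 ± 0.18, the complement genes *C1qb* at 10.58 ± 0.28 and *C1qc* at 10.29 ± 0.33, and *Lgmn* at 10.55 ± 0.20, with *Pf4* undetected. Endothelial cells had 17 of 22 (77.3%, median 8.31), led by *Slc2a1*, the glucose transporter of the blood-brain barrier, at 11.88 ± 0.16, *Flt1* at 11.13 ± 0.21, *Cldn5* at 10.32 ± 0.34 and *Ly6c1* at 10.10 ± 0.24, with *Abcb1a* and *Slc16a1* undetected. Mural cells had 7 of 12 (58.3%, median 6.38), led by *Acta2* at 10.33 ± 0.37 and *Vtn* at 9.35 ± 0.31, and fibroblasts 7 of 17 (41.2%, median 5.90), led by *Igf2* at 10.16 ± 0.25 and *Mgp* at 9.00 ± 0.43 with *Col1a1* and *Col3a1* undetected. *Igf2* is also a gene of choroid plexus.

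Genes listed for other kinds of neuron were detected as well. Striatal interneurons had 10 of 15 genes on all 9 arrays (66.7%, median 9.04), led by the neuropeptide genes *Sst* at 12.96 ± 0.15 and *Npy* at 11.23 ± 0.20, then *Calb2* at 10.61 ± 0.51 and *Cck* at 10.29 ± 1.16. Cortical and other excitatory neurons had 14 of 17 (82.4%, median 10.17), led by *Lmo4* at 13.53 ± 0.08, *Hpca* at 13.35 ± 0.16, *Mef2c* at 12.38 ± 0.18 and *Camk2a* at 12.38 ± 0.21, all expressed by striatal neurons too, and *Neurod1* was undetected. Septal neurons, of the medial wall, had 8 of 13 (61.5%, median 7.61), led by *Gpr83* at 12.58 ± 0.21, *Zic1* at 10.98 ± 0.55, *Nts* at 9.34 ± 0.48 and *Prdm16* at 8.85 ± 0.32, with *Gbx1* and *Hcn4* undetected. Haemoglobin was bright, with *Hbb-bs* at 13.81 ± 0.52, *Hbb-bt* at 13.76 ± 0.33 and *Hba-a1* at 13.22 ± 0.40, although only 4 of 21 blood cell genes (19%) were detected throughout and the T and B cell genes *Cd3g*, *Cd8a* and *Ms4a1* on no array. *Hbb-bs* and *Hbb-bt* are near-identical copies of each other and may share probe signal.

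Lists of tissues outside the ventricle wall lay at the bottom. Of 14 liver genes 1 was detected on all 9 arrays (7.14%), with *Alb* and 7 others on none. Skeletal and heart muscle had 2 of 15 (13.3%), testis and germ line 2 of 14 (14.3%), retina 2 of 12 (16.7%), and genes of the olfactory bulb and other brain regions 6 of 26 (23.1%). Medians of those detected on 3 or more arrays ran from 5.19 for liver to 6.11 for the olfactory bulb and other regions. *Ddc*, of dopamine synthesis, at 8.60 ± 0.20 and *Acta1* at 8.26 ± 0.22 were the brightest members.

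**Figure D2:**
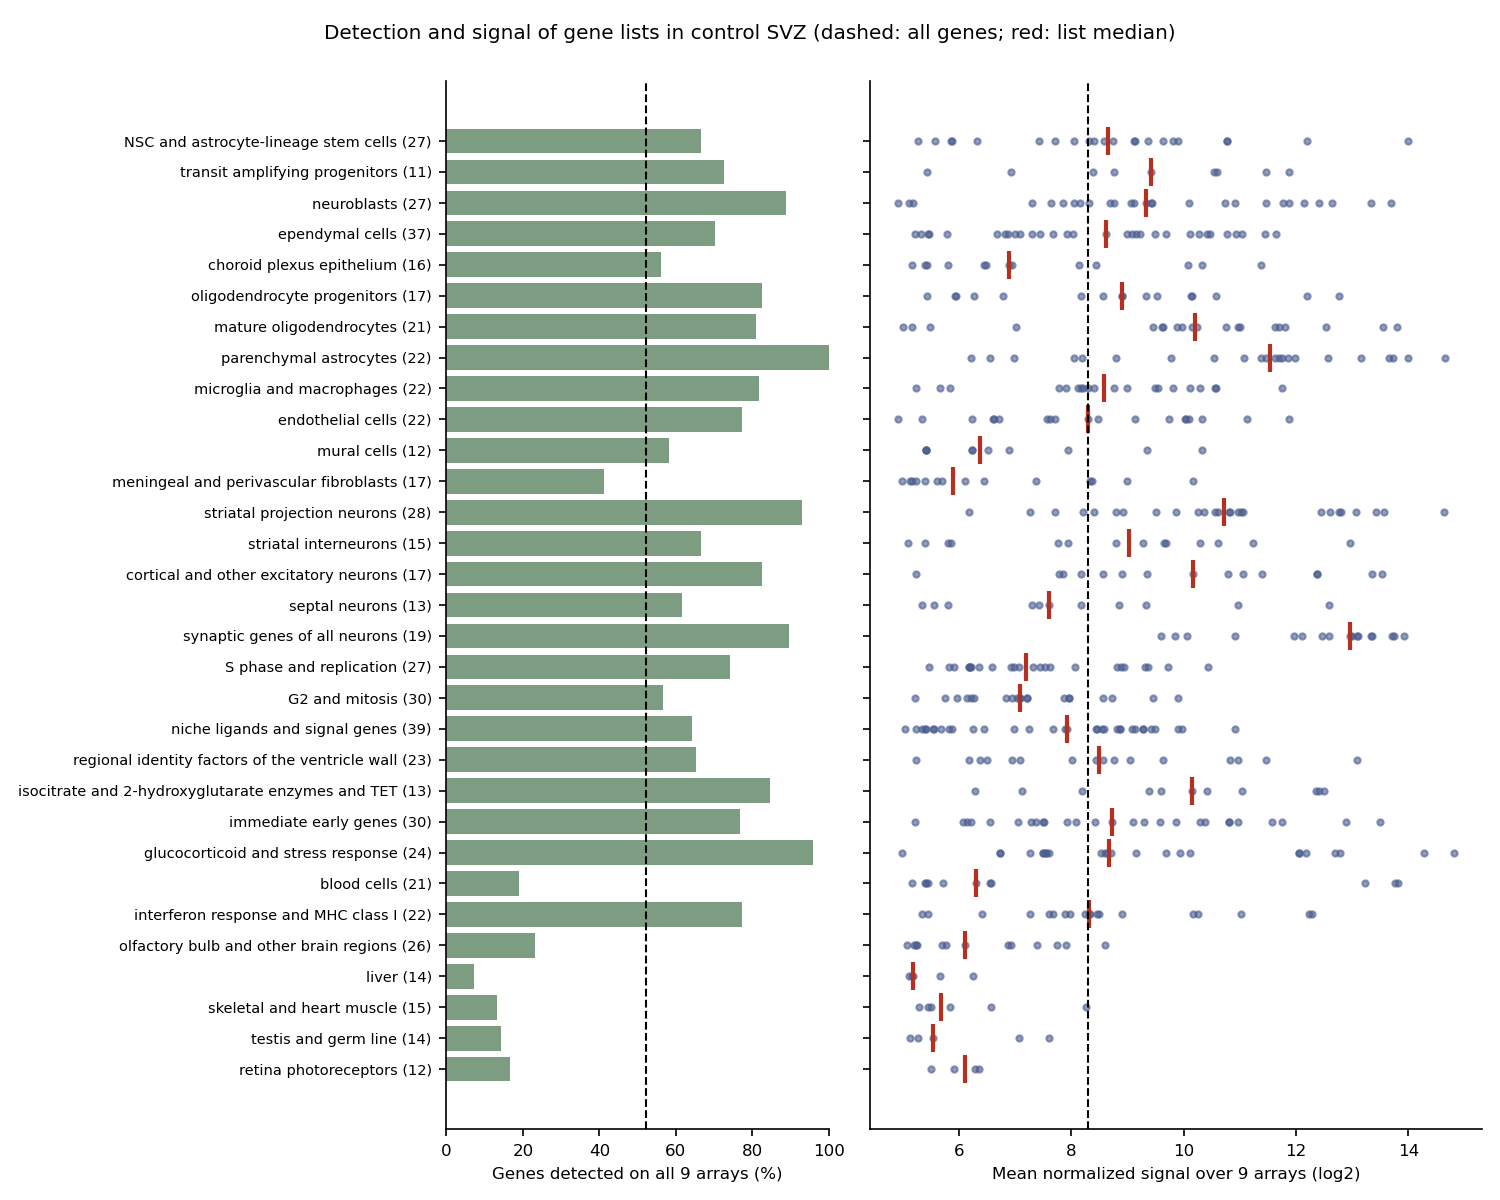
For each gene list (rows, with the number of genes on the array), the left panel gives the share of its genes detected on all 9 control arrays in percent and the right panel the mean normalized log2 signal of each gene detected on 3 or more arrays (dots) with the list median (red bar). Dashed lines are all genes, 52.2% and 8.30. Astrocytes, striatal projection neurons and synaptic genes lie to the right, and liver, muscle, germ line and retina to the left.

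Signals of the niche and regional factors were intermediate. Of 39 niche ligands, receptors and signal genes 25 were detected on all 9 arrays (64.1%, median 7.92). *Robo1*, the receptor of the Slit repellents, was at 10.91 ± 0.19 and its ligand gene *Slit2* at 9.49 ± 0.36. *Vegfa* was at 9.98 ± 0.20 and the chemokine *Cxcl12* at 9.90 ± 0.22. *Gli1*, a Hedgehog target, *Wnt3a*, *Lef1*, *Cntf* and *Btc* were undetected. Of 23 regional factors 15 were detected throughout (65.2%, median 8.50), with *Crym* at 13.08 ± 0.15, *Dlx1*, *Zic1* and *Hopx* at 10.82 ± 0.22 the brightest, and *Pax6*, *Emx2*, *Gsx2* and *Dbx1* among the 5 undetected. *Crym* is also a gene of striatal neurons.

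*Idh1*, which encodes the cytosolic isocitrate dehydrogenase and is wild type here, had 9.90, 9.75 and 9.65 on day 2, against 9.52, 9.59, 9.72, 9.69, 9.50 and 9.12 on day 1, at rank 3811 of 12173. C6 was the lowest, and the days overlapped. The subunits of the mitochondrial NAD-dependent enzyme, *Idh3g* at 12.41 ± 0.10, *Idh3b* at 12.36 ± 0.10 and *Idh3a* at 11.04 ± 0.15, and *Glud1*, which makes α-ketoglutarate from glutamate, at 12.50 ± 0.07, were bright. *Idh2* was at 10.15 ± 0.18. Of the enzymes that oxidise or write 5-methylcytosine, *Tet1* was at 8.20, *Dnmt1* at 9.38 and *Dnmt3b* at 6.30, *Dnmt3a* was on no array and *Tet2* has no probe with its symbol. In all 11 of 13 genes of this list were detected throughout (84.6%).

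Variation between mice was then measured among the 6 arrays of day 1, over 11741 genes detected on at least 3 of them. Day 1 has 2 females, so genes detected in females alone were not ranked. Of these, *Xist* had an SD of 3.49 on its brightest probe and *Prl*, the prolactin gene, 1.39 on those 6 arrays. The SD between arrays had a median of 0.23 on the log2 scale, a 90th percentile of 0.43 and a 99th percentile of 0.74. It was smaller at higher signal, with a median of 0.33 in the dimmest 2936 genes and 0.14 in the brightest 2935. An SD of 1 or more was reached by 36 genes (0.307%). The 25 most variable are described below by the arrays in which they were high, and their choice by this SD makes the values a description with no test. The 25th, *Npffr1*, had an SD of 1.07 and the next, *Gbp2*, 1.06.

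The largest group among them consists of genes known to respond to interferons, antiviral cytokines whose receptors signal through STAT proteins to the nucleus. *Isg15*, a ubiquitin-like protein conjugated to targets during the response, had 7.27, 9.29 and 9.05 in C7 to C9, against 8.56, 6.86, 11.29, 6.73, 7.07 and 10.003 in C1 to C6. Within day 1, C3 was highest, C6 next and then C1, and C3 lay 23.6-fold above C4, whereas C8 and C9 of day 2 lay between C6 and C1. *Usp18*, the protease that removes ISG15 and restrains the receptor, had 8.01, 9.43 and 9.63 on day 2, against 7.67, 6.51, 11.12, 6.44, 7.15 and 9.05 on day 1, with the same 3 arrays at the top of day 1, although C8 and C9 exceeded C6. *Ifit3*, which binds foreign RNA in a complex with its relatives, had 9.92, 11.26 and 10.96 on day 2, against 10.02, 8.29, 12.03, 8.70, 9.14 and 11.16 on day 1, a span of 13.4-fold among the 6. *Oasl2*, of the oligoadenylate synthetase family, ran from 6.63 in C2 to 10.98 in C3, *Gbp3*, a guanylate-binding GTPase, from 6.67 in C2 to 10.58 in C3 on its brightest probe in those 6 arrays, and *Rsad2*, encoding the antiviral enzyme viperin, from 6.93 in C2 to 10.20 in C3. *Ifi27l2a* (6.72 in C5 to 10.18 in C3), *Parp14* (5.31 in C4 to 8.57 in C3), *Mx2* (4.74 in C2 to 7.64 in C3) and the GTPase gene *Gm4951* (4.58 in C4 to 9.20 in C3) had the same top pair within day 1.

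Chemokines moved with them. *Ccl5*, which draws T cells and monocytes, had 6.30, 7.91 and 7.76 in C7 to C9, against 5.72, 4.59, 9.93, 4.90, 4.93 and 6.97 in C1 to C6. It was detected on 6 of 9 arrays. *Cxcl10*, an interferon-induced ligand of CXCR3, had 4.94, 6.55 and 6.50 on day 2, against 5.61, 4.85, 8.68, 4.89, 5.01 and 6.84 on day 1, with detection on 5 arrays. *Ccl12* ran from 5.87 in C4 to 9.37 in C3, and *Ccl4*, a product of activated microglia, from 5.45 in C2 to 8.23 in C3. For each of these 4 genes C3 and C6 were the highest pair of day 1.

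Among C1 to C6, C3 and C6 were the highest pair in 14 of the 25 genes (56%), against 4.29% of all genes. In the list of interferon response and MHC class I genes, of which 6 are among the 25, they were the highest pair in all 19 genes measured, C3 being highest in 18. That list was chosen with earlier results of these data known. Its values are therefore a description of these arrays and no independent support. The median SD of this list was 0.98, against 0.23 over all genes, and all 19 lay in the most variable 10% of genes. These 19 genes included some with signals far above background on every array. *B2m*, the light chain of MHC class I, had 11.92, 12.59 and 12.45 on day 2, against 12.23, 11.73, 13.12, 11.76, 11.94 and 12.80 on day 1. *H2-D1*, a heavy chain, had 9.15, 9.76 and 9.91 on day 2, against 10.66, 9.77, 11.66, 9.95, 10.08 and 11.42 on day 1. *Ifitm3*, a membrane protein that blocks virus entry, ran from 10.14 in C2 to 12.21 in C3, and *Psmb8*, of the immunoproteasome, from 7.28 in C2 to 9.96 in C3. *Ifit1*, *Oas1a* and *Iigp1* were not detected on any array. The mean signal of the 19 genes was 8.27, 9.08 and 8.94 in C7 to C9, against 8.43, 7.44, 10.03, 7.69, 7.90 and 9.15 in C1 to C6. The level was therefore graded rather than split, with C2, C4 and C5 low, C3 high and the other 5 mice between them.

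The day 2 arrays, which took no part in the choice of the 25, spread in the same genes. Of the 25, 19 lay among the 10% of genes with the largest SD in C7 to C9. Of the 19 interferon genes 11 did, with a median SD of 0.40 there, against 0.15 over all genes. Where a variable gene had another detected probe, as 10 of the 25 did, its SD among C1 to C6 could be checked on a second sequence. It was 2.36 for *Kcnd2*, 1.65 for *Usp18*, 1.38 for *Ifit3*, 1.34 for *Gbp3* and 1.09 for *Ccl12*, and between 0.50 and 0.90 for the other 5 genes. Other measures moved with C3. C3 was the highest of the 6 in 12 of 19 microglia genes (63.2%), 15 of 20 genes of G2 and mitosis (75%), 13 of 24 of S phase (54.2%) and 10 of 19 of mature oligodendrocytes (52.6%), against 17.3% of all genes. The part of microglial content and of these other lists in the interferon values was not tested. Without C3, 22 genes had an SD of at least 1 and the median SD of the interferon list was 0.63. Without C3 and C6, 12 genes had such an SD, 6 of the 25 were still among the 25 most variable, and the median of the interferon list was 0.40.

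**Figure D3:**
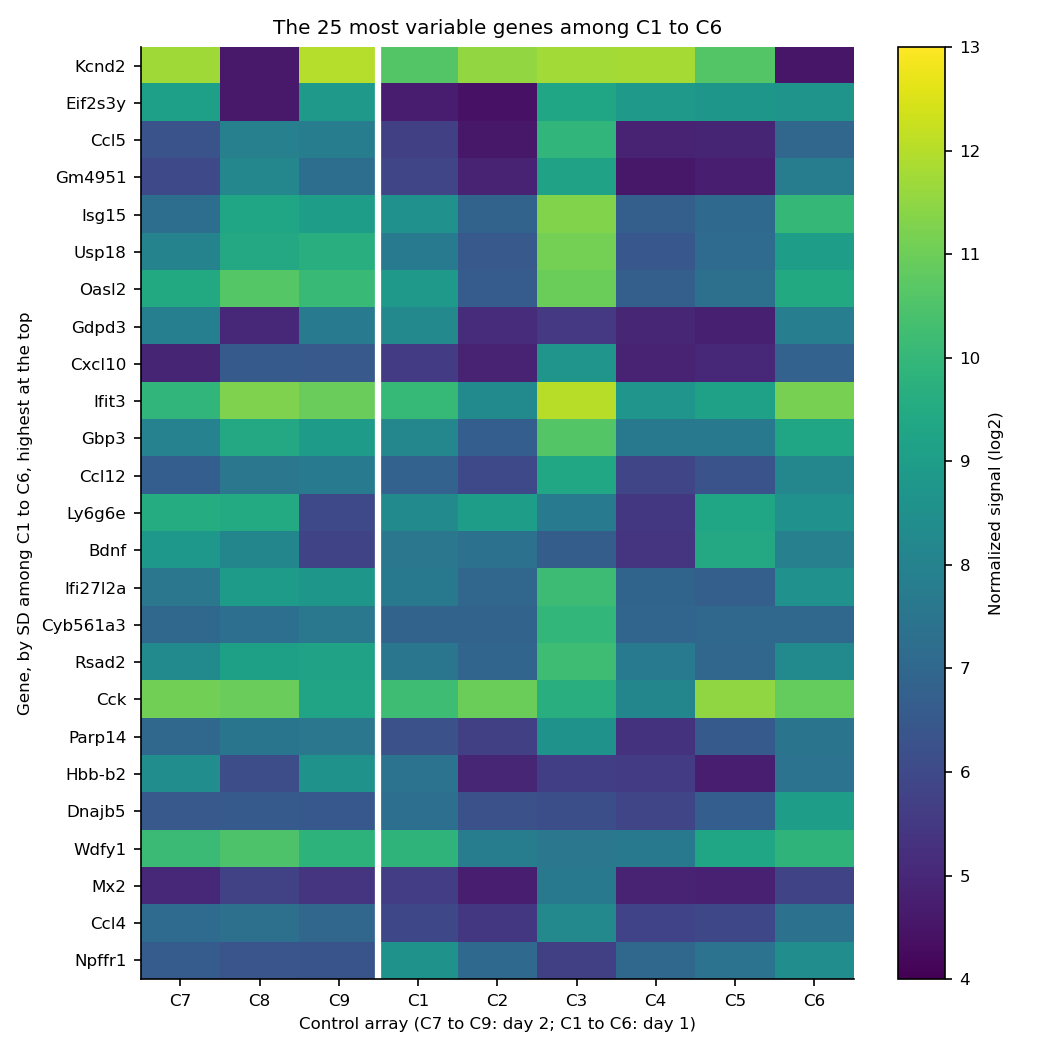
Normalized log2 signal (colour) of the 25 genes with the largest SD among C1 to C6 (rows, most variable at the top) in the 9 control arrays (columns, day 2 left of the white line). The interferon genes and chemokines are brightest in C3 and C6 on day 1 and, other than *Ccl4*, brighter in C8 and C9 than in C7 on day 2, *Kcnd2* is dark in C8 and C6, and *Eif2s3y* is dark in the females C8, C1 and C2.

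Interferon signals reach promoters through a response element built on a repeat of GAAA, and the sequences before the transcription starts of 4 of these genes are shown because they carry it. They are the 250 bases upstream of the start in the RefSeq annotation of build GRCm38.p6, written 5′ to 3′ on the strand of the gene, and capitals mark matches to GAAANNGAAA or to its reverse complement TTTCNNTTTC.
Isg15, chr4:156200819-156201068, - strand: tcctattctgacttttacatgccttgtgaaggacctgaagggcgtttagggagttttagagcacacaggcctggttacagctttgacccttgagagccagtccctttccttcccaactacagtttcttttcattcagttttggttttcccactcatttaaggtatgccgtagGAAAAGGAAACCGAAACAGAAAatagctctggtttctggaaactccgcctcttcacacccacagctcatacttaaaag
Ifit3, chr19:34583279-34583528, + strand: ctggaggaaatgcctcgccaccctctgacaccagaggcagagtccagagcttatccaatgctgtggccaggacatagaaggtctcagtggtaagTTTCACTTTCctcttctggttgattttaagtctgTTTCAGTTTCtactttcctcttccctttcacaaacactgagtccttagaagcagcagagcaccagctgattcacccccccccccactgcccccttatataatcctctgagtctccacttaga
Gbp3, chr3:142559794-142560043, + strand: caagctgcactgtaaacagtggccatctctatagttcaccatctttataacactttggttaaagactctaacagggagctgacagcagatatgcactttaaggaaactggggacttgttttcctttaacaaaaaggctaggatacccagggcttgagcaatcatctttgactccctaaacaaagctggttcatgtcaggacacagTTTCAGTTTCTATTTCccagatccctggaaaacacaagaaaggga
Rsad2, chr12:26456453-26456702, - strand: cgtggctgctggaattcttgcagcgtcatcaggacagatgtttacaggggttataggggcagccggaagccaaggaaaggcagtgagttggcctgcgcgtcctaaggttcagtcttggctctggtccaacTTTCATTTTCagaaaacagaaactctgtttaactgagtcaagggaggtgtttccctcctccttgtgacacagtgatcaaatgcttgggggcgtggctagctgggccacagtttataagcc
*Isg15* held 3 overlapping matches, the nearest beginning 66 bases before the start. *Ifit3* held 2 separate ones, at 156 and 122 bases, *Gbp3* 2 overlapping ones, at 45 and 39 bases before the first of its 2 starts, and *Rsad2* 1 at 120 bases. Among the 17 interferon list genes with an entry in the promoter set, 8 (47.1%) had a match, as did 6 of the 15 with an entry (40%) among the 25 most variable genes, against 3.46% of the 27025 genes in the whole set. *Cxcl10* and, at 1 of its 7 starts, *Bdnf* were among the 6. A match is a string of letters in this window and was not tested as a binding site. *Oasl2* and *Ccl12* had none in this window.

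*Kcnd2*, which encodes the voltage-gated potassium channel subunit Kv4.2, had the largest SD of the 11741 genes ranked, 2.80, and 2 arrays at background. Its signals were 11.71, 4.63 and 11.99 in C7 to C9, against 10.59, 11.53, 11.76, 11.80, 10.60 and 4.54 in C1 to C6. It was not detected in C8 or C6 and bright in the other 7 mice. A second probe gave 9.70, 4.70 and 10.03 on day 2, against 9.95, 10.95, 10.62, 10.55, 9.62 and 4.69 on day 1, with the same 2 arrays at background. C8 is a female of day 2 and C6 a male of day 1. *Gdpd3*, of a family that includes lysophospholipase D enzymes, was detected in C7 and C9 (7.89 and 7.67) but not C8 (5.02) on day 2, and stood at 8.22 in C1 and 7.84 in C6, against 4.79 to 5.49 in C2 to C5. *Hbb-b2*, a β-globin gene, had 8.41, 6.13 and 8.57 in C7 to C9, against 7.43, 4.97, 5.68, 5.57, 4.77 and 7.44 in C1 to C6, with the same 4 arrays high as for *Gdpd3*, C7, C9, C1 and C6. *Hbb-bs*, another β-globin gene, was highest in other arrays, with 13.34, 14.46 and 13.32 on day 2, against 13.55, 13.66, 14.42, 14.48, 13.62 and 13.43 on day 1. *Wdfy1*, an endosomal adaptor, was high in C7 to C9 (10.13, 10.47 and 9.81) and in C1, C5 and C6 (9.84, 9.29 and 9.86) and between 7.59 and 7.81 in C2 to C4, although its second probe had an SD of 0.74. Among C1 to C6, C1 and C6 were the highest pair in 5 of the 25 genes (20%), against 12.3% of all genes. *Cyb561a3*, of the cytochrome b561 family, stood at 9.97 in C3 and between 6.85 and 7.59 in the other 8 mice.

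A further 3 genes shared their lowest arrays, C4 of day 1 and C9 of day 2. *Cck*, the cholecystokinin of cortical neurons and interneurons, had 11.10, 10.93 and 9.25 in C7 to C9, against 10.21, 10.98, 9.68, 8.13, 11.51 and 10.86 in C1 to C6. *Bdnf*, the neurotrophin that cortical neurons supply to the striatum, had 8.81, 8.13 and 5.86 on day 2, against 7.57, 7.34, 6.64, 5.36, 9.43 and 7.90 on day 1. *Ly6g6e* had 9.56, 9.50 and 5.99 on day 2, against 8.27, 9.04, 7.70, 5.47, 9.27 and 8.55 on day 1. The highest array of day 1 was C5 for all 3. The vesicular glutamate transporter *Slc17a7*, which striatal projection neurons lack, had 11.29, 10.60 and 8.99 on day 2, against 11.66, 11.01, 10.80, 9.40, 11.35 and 11.97 on day 1, and *Neurod2*, of excitatory neurons, was likewise lowest in C9 (7.72) and C4 (8.15). The mean of the 15 excitatory neuron genes was 9.66 in C9, with 10.26 and 9.99 in C7 and C8, and 9.82 in C4, with 10.03 to 10.29 in the other 5 mice of day 1. The part of excitatory neuron content in the values of *Cck*, *Bdnf* and *Ly6g6e* was not tested.

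The immediate early genes, which neurons switch on within minutes of activity, were another variable list, with 13 of 26 members in the most variable 10% (50%) and a median SD of 0.44. Blood cell genes had 6 of 9 (66.7%) and a median SD of 0.46. C6 was the highest of the 6 in 15 of the immediate early genes (57.7%, against 17.4% of all genes) and C4 the lowest on their mean, at 8.38 against 8.71 to 9.34 in the other 5. *Egr2* had 9.20, 9.18 and 9.44 on day 2, against 8.97, 8.00, 8.08, 7.03, 8.87 and 9.82 on day 1, and *Arc*, whose protein acts at synapses, 9.93, 9.25 and 9.99 on day 2, against 11.46, 10.43, 10.05, 9.43, 11.34 and 11.52 on day 1. The chaperone gene *Dnajb5* was highest in C6, at 9.01 against 5.89 to 7.30 in the other 5 mice, and *Npffr1*, a neuropeptide receptor, in C1 and C6, at 8.64 and 8.40. Of 10 septal neuron genes 5 were in the most variable 10%, with *Zic1* at 9.56 in C3 and at 10.76 to 11.17 in the rest of day 1. Low median SDs were those of the isocitrate enzymes, 0.17 with 0 of 11 genes in the most variable 10%, of synaptic genes, 0.15 with 1 of 17 (5.88%), and of astrocytes, 0.16, although 3 of 22 astrocyte genes (13.6%) were in the most variable 10%. The synaptic and astrocyte lists also had the highest median signals.

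**Figure D4:**
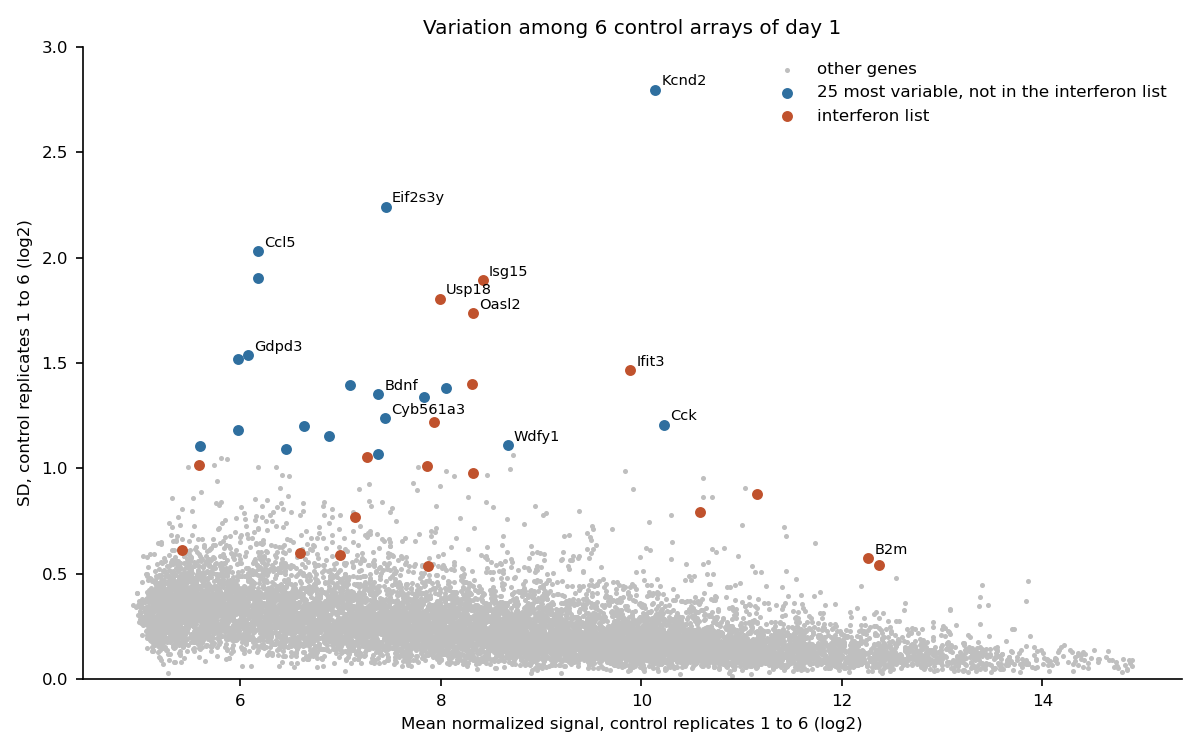
SD among C1 to C6 (vertical axis, log2) against mean normalized signal on the same arrays (horizontal axis, log2) for 11741 genes. Orange points are 19 interferon and MHC class I genes and blue points the other members of the 25 most variable genes, all of them within the most variable 10% of genes, above most of the grey cloud, which narrows from left to right. *Kcnd2* is the highest point, at 2.80.

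Between the hybridisation days, which are also the age classes, a large part of the transcriptome differed. With sex as a covariate 3405 of 12173 genes were higher on day 2 (28%) and 2428 lower (19.9%) by limma at an adjusted p under 0.05, and in 44.9% of genes the days did not overlap. The median difference over all genes was 0.098 on the log2 scale, or 0.11 with median scaling, so differences are to be read against that. *Mt3*, the metallothionein of brain, had 10.33, 10.32 and 10.56 on day 2, against 13.81, 13.07, 13.20, 12.98, 13.27 and 13.91 on day 1 (difference -2.97, standard error, SE, 0.22, limma adjusted p = 8.52e-05), whereas its relative *Mt1* had a difference of -0.09. *Zfp692* had 5.74, 5.32 and 5.33 on day 2, where 2 of 3 arrays detected it, and 8.06 to 8.43 on day 1 (difference -2.82), but its probes disagreed in size: the difference was -1.77 over the mean of its detected probes and -0.55 on the probe detected on all 9 arrays. *Snhg11*, a long noncoding RNA of neurons, differed by -2.46 (SE 0.14), *Ap2a1*, of clathrin adaptors, by -2.44 (SE 0.21), *Pltp*, a lipid transfer protein, by -2.33 (SE 0.28) and *Cyp46a1*, which turns cholesterol into 24-hydroxycholesterol in neurons, by -2.31 (SE 0.36). *Firre*, a long noncoding RNA, had 5.13, 5.32 and 5.03 on day 2, where 1 of 3 arrays detected it, and 7.18 to 7.85 on day 1, so that it was at least 4.44-fold lower. *Rgs11*, *Pym1* and *4933411G06Rik* were detected on 6 of 6 arrays of day 1 and on 0 of 3 of day 2, where they were at least 4.94-fold, 4.34-fold and 3.37-fold lower. These bounds set the mean of the days with signal against the faintest detected probe of each array without it. They and the bounds below belong to the main normalization and leave out sampling error. On the deposited processed log2 values the differences were -1.84 for *Rgs11*, -1.67 for *Pym1*, -1.66 for *4933411G06Rik* and -1.65 for *Firre*. Those are smaller in size than the bounds, which are 2.30, 2.12, 1.75 and 2.15 on the log2 scale.

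In the other direction *Crebbp*, encoding a histone acetyltransferase, had 9.51, 9.69 and 9.83 on day 2, against 7.70, 7.02, 7.03, 7.03, 7.30 and 7.90 on day 1 (difference 2.35, SE 0.22, limma adjusted p = 0.000138). *Wnk2*, a kinase, differed by 2.02 (SE 0.16), *Dctn1*, of dynactin, by 2.00 (SE 0.14), *Sec14l2* by 1.99 (SE 0.17), and *Frmd7* by 2.19 (SE 0.25). *G2e3*, a ubiquitin ligase, had 7.09, 7.59 and 7.24 on day 2 and 4.98 to 5.42 on day 1, where 4 of 6 arrays detected it. On this probe it was at least 3.96-fold higher. Over the mean of its detected probes the difference was only 1.28 on the log2 scale. *Gal*, the neuropeptide galanin, had 8.50, 8.69 and 9.33 on day 2, against 6.87, 7.98, 5.13, 5.90, 6.73 and 6.29 on day 1 (difference 2.36, SE 0.44). *Sct*, encoding secretin, rested largely on C7, at 8.98 with 6.67 and 5.96 in C8 and C9, against 4.74 to 5.50 on day 1, and its difference of 2.25 was 1.36 without C7. *Rhox9* had the same shape, at 8.49, 6.22 and 5.61 on day 2 with no detection on day 1 (at least 2.99-fold higher), and *B4galt5*, a galactosyltransferase, was at 7.12, 7.14 and 7.01 with no detection on day 1 (at least 3.72-fold higher).

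Set against the shares of all genes, mature oligodendrocytes stood out. Of 20 genes 13 were lower on day 2 (65%, against 19.9%) and 0 higher, with a median difference of -0.65. *Mog*, of the myelin surface, had 8.67, 8.56 and 8.83 on day 2, against 9.77, 10.12, 10.44, 10.12, 9.84 and 10.37 on day 1 (difference -1.42, SE 0.15, limma adjusted p = 0.000177). *Mbp* had 13.21, 12.67 and 13.15 on day 2, against 13.98, 14.13, 14.34, 14.07, 14.27 and 14.35 on day 1 (-1.18, SE 0.12). *Cnp*, *Mal* and *Trf* fell by 1.34, 1.22 and 1.36, whereas *Cldn11* differed by -0.01. Oligodendrocyte progenitors went both ways, with 6 of 16 genes higher (37.5%, against 28%) and 3 lower (18.8%, against 19.9%). Their median difference was 0.139, against 0.098 over all genes. Among the higher ones were *Pdgfra* by 0.66 (SE 0.14), *Gpr17* by 0.73 (SE 0.15) and *Enpp6*, a marker of newly forming oligodendrocytes, by 0.84 (SE 0.22). Under each of 5 other normalizations between 10 and 14 of the 20 oligodendrocyte genes were lower and 0 higher.

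Replication and mitosis genes were mostly higher on day 2 where they differed. Of 24 S phase genes 10 were higher (41.7%, against 28%) and 0 lower, with *Cdt1*, which licenses origins, at 8.27, 8.37 and 8.26 on day 2, against 6.76, 6.45, 7.04, 6.97, 7.22 and 6.52 on day 1 (1.48, SE 0.17, limma adjusted p = 0.000247). *Uhrf1* was higher by 1.23 (SE 0.24) and *Mcm4* by 0.77 (SE 0.11). The list of the olfactory bulb and other brain regions, also dim, had 5 of 13 genes higher (38.5%) and 0 lower. Its median difference was 0.27, against 0.24 for S phase genes, so this lean was not particular to replication genes. Of 20 genes of G2 and mitosis 8 were higher (40%) and 2 lower, with *Nusap1*, of the spindle, higher by 1.73 (SE 0.27), *Cdca8* by 1.21 (SE 0.22) and *Kif23* lower by 0.77 (SE 0.17). Neuroblast genes had 6 of 27 higher (22.2%) and 2 lower, with *Dcx* higher by 1.00 (SE 0.16, limma adjusted p = 0.000947) and *Dlx6* lower by 0.98 (SE 0.22). The NSC list was split 5 and 5 of 22, with *Gfap* lower by 1.47 (SE 0.35, limma adjusted p = 0.00767), *Hes5* lower by 0.97 (SE 0.21), *Notch1* higher by 1.17 (SE 0.17) and *Slc1a3* higher by 0.73 (SE 0.11).

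Other lists had genes in both directions, to be read against 28% higher and 19.9% lower among all genes. Astrocytes had 8 of 22 lower (36.4%), *Bcan*, a proteoglycan, by 2.11 (SE 0.26), and 5 higher (22.7%). Microglia had 6 of 20 lower (30%), the complement genes *C1qb* by 1.37 (SE 0.18) and *C1qc* by 1.21 (SE 0.21) first, and 5 higher (25%), *P2ry12* by 1.38 (SE 0.24) and *Laptm5* by 1.13 (SE 0.13) first. Ependymal cells, near the share of all genes, had 10 of 31 higher (32.3%), with the dynein gene *Dnah5* by 1.34 (SE 0.15), and 2 lower (6.45%), with *Tppp3*, of the tubulin polymerization promoting family, by 1.28 (SE 0.19). Striatal projection neurons had 7 of 26 lower (26.9%), among them *Penk* by 0.88 (SE 0.18) and *Drd2* by 0.84 (SE 0.22), and 4 higher (15.4%). *Drd1* and *Tac1* differed by -0.10 (SE 0.13) and -0.28 (SE 0.12) and did not pass. *Penk*, *Drd2* and *Tac1* were chosen after their values were seen. A contrast between kinds of striatal projection neuron was not tested. In the isocitrate and TET list 5 of 11 were higher (45.5%), with *Dnmt1* by 1.07 (SE 0.13), *Idh2* by 1.04 (SE 0.14), *Idh3a* by 0.77 (SE 0.13), *Tet1* by 0.55 (SE 0.17) and *Dnmt3b* by 0.54 (SE 0.15), and *Ogdh* and *Adhfe1* were lower by 0.94 (SE 0.17) and 0.98 (SE 0.17). *Idh1* differed by 0.24 (SE 0.15) and did not pass. Of 19 interferon genes 1, *H2-K1*, was higher by 1.84 (SE 0.31) and 0 were lower.

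**Figure D5:**
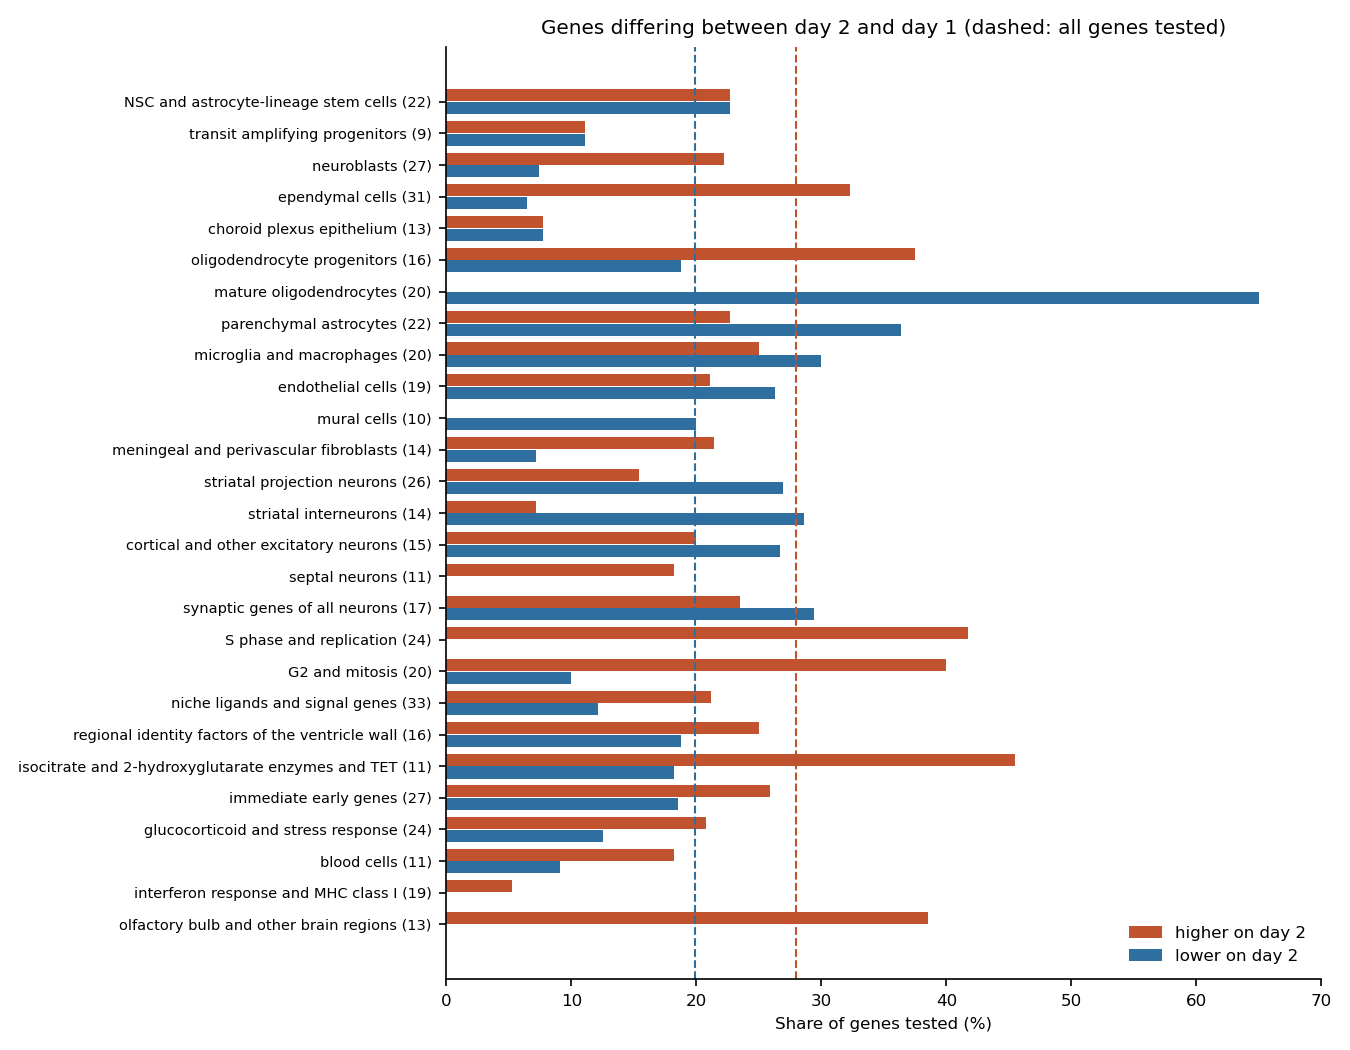
Share of the genes tested in each list (rows, number tested in brackets) that were higher (orange) or lower (blue) on day 2 than on day 1, in percent, for lists with 9 or more genes tested. Dashed lines give the shares over all 12173 genes, 28% higher and 19.9% lower. Mature oligodendrocytes reach 65% lower with none higher, and S phase genes 41.7% higher with none lower. Genes of the olfactory bulb and other brain regions reach 38.5% higher, also with none lower.

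Sex, by contrast, separated few genes. With day as a covariate 3 of 12173 passed by limma (0.0246%), *Xist* higher in females and *Eif2s3y* and *Kdm5d* lower, and 397 had an unadjusted p under 0.05. In the main normalization *Xist* was at least 67.1-fold higher in females and *Kdm5d* at least 2.43-fold lower. *Eif2s3y* was at least 13-fold lower there, with 4.58 in females and 8.91 in males on average. *Eif2s3x*, an X-linked gene that escapes inactivation, was at 10.96, 11.13 and 11.02 in the females C1, C2 and C8 and between 9.96 and 10.46 in the males. The sexes did not overlap, but its difference of 0.75 (SE 0.12) did not pass (limma adjusted p = 0.32). *Prl*, encoding the hormone prolactin, was detected in the 3 females alone, at 8.12, 6.08 and 8.51, and lay at 4.57 to 4.90 in the males, yet did not pass either (limma adjusted p = 0.161). No gene passed in the interaction of sex with day (limma, 225 with an unadjusted p under 0.05), for which day 2 has 1 female.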

How the data were processed

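RNA of control SVZ was hybridised to Illumina Mouse WG6-v2 bead arrays. The authors deposited non-normalized bead intensities for each probe, which showed no sign of background subtraction, and beside each a detection p-value against negative control beads. They also deposited processed log2 values, whose normalization is not stated in the sources used here and which served as an alternative only. The submitters' processing notes name GenomeStudio, with its version not given in the sources used here. No sample columns were left unused for lack of a label (0), and the arrays of the other genotype entered 1 alternative alone, a joint normalization of 18 arrays.

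Intensities of the 9 control arrays were background-corrected, quantile-normalized and log2-transformed with neqc of limma 3.58.1 in R 4.3.3, with an offset of 16. Of 45281 probes 34885 had 1 gene symbol in the platform annotation, 18 several and 10378 none. By Entrez identifier 34807 matched a current symbol, and 0 symbols changed. The brightest detected probe stood for a gene, taken over the 9 arrays or, for variation, over C1 to C6. Genes with a detection p-value under 0.05 on 3 or more of 9 arrays (12173) were tested, and those on 3 or more of C1 to C6 (11741) ranked by SD. Differences between hybridisation days, with sex as a covariate, and between sexes, with day, came from limma (lmFit, eBayes) with Benjamini-Hochberg adjustment over all genes tested. Array summaries were compared by exact permutation. Because nothing states that the samples came from separate litters or extractions, p-values measure only the spread between these samples, and the number of arrays limits the precision.

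The text names the 4 marker genes, the 4 brightest members of each list with up to 4 of those undetected and the members that the study stained, the 20 brightest genes, the 25 with the largest SD among C1 to C6, the 10 higher and 10 lower with the largest difference between days at an adjusted p under 0.05, the same for sex, and the *Idh1* list. Other members of lists, *Prl*, *Eif2s3x* and the single members of gene families were chosen after their values were seen. The members and lists were chosen with earlier results of these data known. On simulated data with 12173 genes, 100 shifts of 1 on the log2 scale gave 66 calls between days and 65 between sexes. In the same data 100 shifts of 0.5 gave 19 and 15, and 11973 genes without a shift gave 4 and 5. Genes were drawn independently there and most had no shift, whereas 3405 genes were higher and 2428 lower between the real days. The simulated counts therefore do not give the power or error of the day comparison. Alternatives were other normalizations, filters, probe rules and models, and each array left out in turn.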

Additional observations from a re-analysis of the deposited data

Results flagged for a closer look

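In 5 of 64 items a single array stood apart from the other 5 of day 1 by Dixon's test of the gap over the range. Chance flags about 1 in 20 groups. That rate does not apply to *Kcnd2* and *Cyb561a3*, which were chosen for a large SD over the same 6 arrays.

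C6 had the lowest *Dcx* signal, 8.65, where the other 5 arrays had 9.09 to 9.28, and was also lowest, at 8.18, on the other detected probe of the gene. It also had the lowest *Idh1* signal, 9.12, where the others had 9.50 to 9.72, and *Kcnd2* at 4.54, below detection, where the others had 10.59 to 11.80.

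C3 had *Cyb561a3* at 9.97, where the others had 6.85 to 7.05. Its mean signal over the septal neuron genes was 7.42, where the others had 8.04 to 8.20.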

How the results depend on the processing

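No paired analysis was possible because the control mice of the 2 days, and of the 2 sexes, share no replicate number. The count of genes with an SD of at least 1 among C1 to C6 was 36, against 9 without background correction, 18 on the deposited processed log2 values and 22 among genes detected on all 9 arrays. Leaving out 1 array gave 22 (without C3) to 42, and 14 (without C3) to 24 of the 25 most variable genes were shared, with 16 without C6. Without both C3 and C6, an alternative chosen after seeing the data, the counts were 12 and 6. Genes higher in females, 1 in the main fit, were 2 with median scaling or without background correction and 0 among genes detected on all 9 arrays or on day 1 alone. Leaving out 1 array gave 0 (without C1, C2 or C8) to 2. *Xist*, detected in females alone, was not fitted without C1, C2 or C8, or on day 1 alone. Too few females were then left for it to pass the detection filter. Those counts of 0 therefore do not test its difference. Genes lower in females, otherwise 2, were 0 among genes detected on all 9 arrays, a filter that removes genes silent in 1 sex.

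The day difference in the percentage of probes detected ran from -4.321 to -2.757 with 1 array left out and lost its call without C1, C2, C3, C4, C6, C7 or C9 (exact permutation p up to 0.0714). That in mean signal, 4.458, ran from -33.589 to 63.057 and changed sign without C1 (-21.039), C6 (-5.944), C7 (-16.095) or C8. Genes higher on day 2 numbered 2286 (without C8) to 3402 and lower ones 1630 to 2410 with 1 array left out. The named day and sex genes kept their direction in every alternative that could be fitted. Their sizes did not all hold: without background correction the difference was -1.40 for *Zfp692*, 0.84 for *G2e3*, -1.01 for *Firre*, 0.83 for *B4galt5*, -1.13 for *Rgs11* and 1.41 for *Gal*. The sex by day interaction without C8 could not be fitted. For results with moved or lost values the cause was not tested, other than where a filter is named. At a detection p-value under 0.01, 9095 genes were detected on all 9 arrays. Signals under about 5.5 cannot be told from background.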

Other observations

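Genes with a probe whose detection differed between hybridisation days were counted apart from the fits. Of 19057 genes, 46 had at least 1 probe detected on all 3 arrays of day 2 and none of day 1. The reverse, all 6 arrays of day 1 and none of day 2, held for at least 1 probe of 244 genes. Other probes of these genes can be detected on both days. Fewer probes were detected per array on day 2 (45.98% on average, against 49.41%), and the part of that in these counts was not tested.

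The glucocorticoid and stress response list, not described above, was among the fullest, with 23 of 24 genes detected on all 9 arrays (95.8%) and a median signal of 8.67. It was led by *Mt1*, the heat shock cognate *Hspa8* at 14.27, the co-chaperone *Hsph1* at 12.78 and the glucocorticoid-induced kinase *Sgk1* at 12.69. C6 was the highest of the 6 day 1 arrays in 9 of its 24 genes. Of the immediate early genes 23 of 30 were detected throughout (76.7%), led by *Egr1* at 13.50, *Egr3* at 12.88, *Gadd45g* at 11.75 and *Dusp6* at 11.58, whereas *Nr4a1*, *Ier2* and *Btg2* were on no array.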
